A study of Mus musculus with 39 samples.

Results

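Cholesterol and fatty acid synthesis genes were followed in PB2 mouse breast tumors through 35 genes taken by symbol from a table of 20520 genes, and all 35 were found there and passed the filter on low values. They are 7 genes that lead from acetyl-CoA to farnesyl diphosphate, 11 that lead from squalene to cholesterol, 5 that encode the SREBP factors and their sensors, 2 for sterol transport, 6 for fatty acid synthesis and desaturation, and 4 for the LXR receptors and their efflux targets. They were listed by symbol, with earlier results of these data known.

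PB2 tumors carried FL-HER2, the full-length form of the receptor tyrosine kinase HER2, or p95HER2, a carboxy-terminal form that lacks most of the extracellular part. Poly(A) RNA of whole tumors was sequenced 10 or 22 days after implantation, which gave 4 groups: FL-HER2 day 10 (n = 10), FL-HER2 day 22 (n = 9), p95HER2 day 10 (n = 10) and p95HER2 day 22 (n = 10). All 4 groups carry a HER2 construct, so no comparison here is against PB2 tumors without HER2. The labels give no mouse strain, age, promoter or clone, and they do not say whether the libraries of a group came from separate animals, so p-values measure the spread between these libraries. Of the 10 FL-HER2 day 10 libraries, 8 carry a tumor number of 5 digits, and the other 2, like all libraries of the other groups, one of 3 digits. What the longer numbers stand for is not given in the labels. Libraries held 21772259 to 44427621 reads, and 3 epithelial markers were high in every group, with group medians of 599 to 719.9 CPM (reads of a gene per 1000000 reads of the library) for Epcam, 583 to 622 for Krt8 and 329 to 393 for Cdh1. Of the 11 epithelial markers, Krt14 (21.8 to 163), Krt5 (8.13 to 25.8), Krt17 (1.73 to 10.4) and Cldn4 (2.48 to 6.92) had lower group medians, and 6 of the 11 fell over time under either construct.

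Cells make cholesterol from acetyl-CoA through mevalonate, farnesyl diphosphate, squalene and lanosterol. SREBP2 mainly drives the genes of this route and SREBP1 mainly those of fatty acid synthesis. When membrane sterol is low, SCAP carries the SREBP precursors to the Golgi, where they are cut and activated. When sterol is high, INSIG proteins hold SCAP in the endoplasmic reticulum, and oxysterols activate the LXR receptors, which switch on cholesterol efflux and also Srebf1. SREBP activity is thus set largely by cleavage of the protein, which RNA levels do not measure.

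Promoter sequence was read for the members with a tabled promoter, 27 of 35, from RefSeq windows of 250 bases before to 50 after each gene start (build GRCm38.p6). The sterol regulatory element that SREBPs bind was searched in its stricter form TCACNCCAC and a looser form TCANNCCA, which contains it, and the box of their partner NF-Y as CCAAT, all on both strands. Of the members with the looser element, the 4 with the smallest adjusted p between constructs at day 10 (limma, described below) are printed. The choice thus follows the test results. The promoters are shown 5′ to 3′ on the strand of the gene with both kinds of match in capitals (CCAAT on the opposite strand reads ATTGG).
Msmo1, chr8:64733529-64733828, minus strand: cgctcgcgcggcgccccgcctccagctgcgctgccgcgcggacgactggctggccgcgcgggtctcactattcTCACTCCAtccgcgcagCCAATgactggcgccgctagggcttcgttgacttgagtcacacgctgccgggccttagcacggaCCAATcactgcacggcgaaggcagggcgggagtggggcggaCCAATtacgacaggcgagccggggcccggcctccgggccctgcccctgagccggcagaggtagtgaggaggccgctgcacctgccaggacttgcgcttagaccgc
Hmgcs1, chr13:119690101-119690400, plus strand: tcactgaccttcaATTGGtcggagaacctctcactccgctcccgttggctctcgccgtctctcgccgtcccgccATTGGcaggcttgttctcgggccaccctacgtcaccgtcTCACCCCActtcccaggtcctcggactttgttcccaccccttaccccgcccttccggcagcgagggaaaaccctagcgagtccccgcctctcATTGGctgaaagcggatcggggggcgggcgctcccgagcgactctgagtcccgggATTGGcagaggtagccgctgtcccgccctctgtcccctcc
Srebf1, chr11:60220578-60220877, minus strand: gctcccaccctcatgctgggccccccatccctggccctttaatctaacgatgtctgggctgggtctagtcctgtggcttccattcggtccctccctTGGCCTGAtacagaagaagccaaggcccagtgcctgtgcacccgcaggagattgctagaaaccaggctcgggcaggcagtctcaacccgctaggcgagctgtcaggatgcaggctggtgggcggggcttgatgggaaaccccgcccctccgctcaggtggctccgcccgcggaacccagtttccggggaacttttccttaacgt
Srebf2, chr15:82147019-82147318, plus strand: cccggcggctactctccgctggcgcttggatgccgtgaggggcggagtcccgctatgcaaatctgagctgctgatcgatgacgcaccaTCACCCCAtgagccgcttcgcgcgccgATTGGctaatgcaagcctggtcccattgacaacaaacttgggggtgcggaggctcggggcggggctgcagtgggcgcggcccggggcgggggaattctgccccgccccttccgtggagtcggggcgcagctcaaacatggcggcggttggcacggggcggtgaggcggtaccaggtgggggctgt
The Srebf1 window is 1 of 3 tabled for that gene.

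The CCAAT box was found in 14 of the 15 sterol synthesis genes with a tabled promoter, against 37.4% of all 32851 promoters and 42.4% of the 10660 tested genes with one. It was in 2 of 4 fatty acid genes and in 0 of 3 genes of the LXR group. The looser element was in 5 of the 27 members (Acly, Hmgcs1, Msmo1, Srebf1 and Srebf2), which is 18.5%. It was in 15.7% of all promoters, 17.6% of all genes with one and 15.3% of the tested genes. The stricter element was in Hmgcs1 alone, against 1.24% of all promoters and 1.35% of the tested genes. A match describes these letters and is not a binding site.

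Levels per kilobase of exon set the genes far apart. On the scale of CPM per kilobase, averaged over the 4 groups, the delta-9 desaturase genes Scd2 and Scd1 led with 405 and 291, followed by Srebf1 with 177. Srebf2 stood at 41.9 on that scale. Cyp51 was the highest sterol synthesis gene (66.1), and Tm7sf2 the lowest member of all (1.85), just under the LXR receptor gene Nr1h3 (2.11) and the efflux pump gene Abcg1 (2.49). Scd1 and Scd2 are close paralogs and may share reads. Exons overlap those of another counted gene for Fdft1 (Ctsb, opposite strand, 18.3% of its exon bases) and Tm7sf2 (Vps51, same strand, 12.1%), and by under 5% for Npc1, Cyp51, Lss, Srebf1 and Elovl6. Whether counting used the strand is not given in the sources used here.

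**Figure D1:**
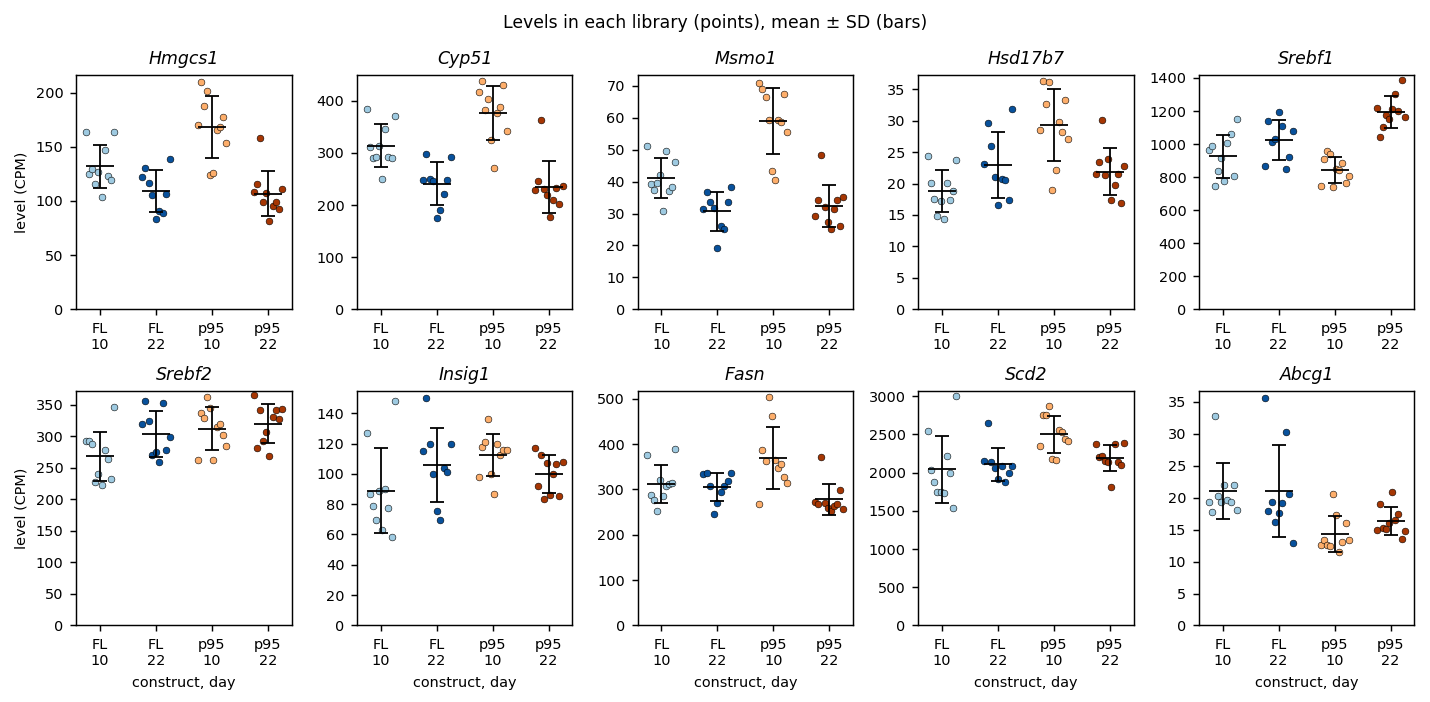
Level of 10 members in each library, in CPM on linear axes that start at 0, by construct (FL, p95) and day (10, 22). Points are libraries, long bars means and short bars SD. Hmgcs1, Cyp51 and Msmo1 are highest in the p95HER2 day 10 group, while Srebf1 is highest in the p95HER2 day 22 group, between 1044 and 1388 CPM.

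The comparison of p95HER2 with FL-HER2 tumors at day 10 asks how tumors of either construct differ early. The digits of the tumor number and the tissue content differ along with the construct. Sterol synthesis genes were higher in p95HER2 tumors, by modest amounts: 9 of 18 passed the test and none was lower. Hsd17b7 (a 3-keto-sterol reductase) and Msmo1 (the C4 methyl oxidase) differed most. The desaturase genes Scd1 and Scd2, the sterol carrier gene Stard4 and Insig1 were also higher, while Srebf1, Nr1h3 and Abcg1 were lower. In all, 13 of 35 members were higher (37.1%), against 15.2% of all 13650 genes tested, and 3 were lower (8.57%), against 26.1% (41.3% of all genes in either direction). The median log2 change of the members was 0.18, beside -0.04 over all genes. Here and below, a change is a difference of mean log2(normalized count + 1), given ± SE. It was called where limma gave an adjusted p (Benjamini-Hochberg) below 0.05.

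Tissue content differed between these groups. All 25 skeletal muscle markers were lower in p95HER2 tumors, and their share of reads ran from 0.0554% to 4.24% in the FL-HER2 and from 0.00489% to 1.17% in the p95HER2 libraries. Macrophage markers were lower for 12 of 14, endothelial for 7 of 8, adipocyte for 7 of 12 and fibroblast for 6 of 10. In bulk tumors, fewer cells of a type and less RNA per cell cannot be told apart. With the muscle score as a covariate 4 members were called (Msmo1, Hsd17b7, Srebf1 and Abcg1), with the macrophage score 2 (Hsd17b7 and Srebf1) and with the fibroblast score 2 (Hsd17b7 and Abcg1). Among libraries with 0.1% to 1.3% muscle reads, only 2 of them FL-HER2 and 4 p95HER2, 0 members were called, and the 13 higher members had changes between -0.16 (Sc5d) and 0.14 (Hsd17b7). With the digits of the tumor number as a term, which sets the p95HER2 tumors against 2 FL-HER2 libraries, 2 were called (Nsdhl and Scd2). Over all 13650 genes these fits called fewer too, where the main fit called 2071 higher and 3565 lower. The counts were 1075 and 2123 with the muscle score, 801 and 1176 with the macrophage score, and 924 and 1349 with the fibroblast score. They were 144 and 139 among the muscle-limited libraries and 531 and 844 with the digits term. A skin score (mean log2 of skin markers) below 6 was found in 8 FL-HER2 and 5 p95HER2 libraries. A fit limited to such libraries called 6 members, and over all genes 1330 higher and 2658 lower. Scaling matters too: higher genes made up 36.7% of all calls as deposited, 49.1% with recomputed median-of-ratios factors and 62.9% with quantile normalization. Srebf2, Acaca and Fasn were called higher under each other scaling (median-of-ratios, quantile and library totals), and Scap, Cyp51 and Lss under median-of-ratios and library totals.

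At day 22 the same comparison found little. Srebf1 alone was called, higher in p95HER2 tumors, which is 2.86% of the members, against 2.98% of all genes higher, 1.54% lower and 4.52% in either direction. None of the 18 sterol synthesis genes was called in the main limma fit, and their changes lay between -0.26 (Acat2, adjusted p = 0.081) and 0.08. Acat2 was called lower with library weights and with the muscle score as a covariate, where it was the only call. At an unadjusted p under 0.05, 2 members were higher and 2 lower, and voom on the recovered reads called 0. T cell markers were lower in p95HER2 tumors for 3 of 5 and macrophage markers for 2 of 14, and mammary epithelial markers were higher for 3 of 11 and endothelial for 1 of 8. No muscle, adipocyte, fibroblast, skin, sebaceous or proliferation marker was called.

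Between day 10 and day 22 in p95HER2 tumors, the sterol and fatty acid synthesis genes fell together. Of the 18 sterol synthesis genes 15 fell (83.3%), as did 5 of 6 fatty acid genes and Stard4. Of the fatty acid genes, 3 were called with quantile normalization (Acly, Acaca and Fasn), 2 with scaling to library totals (Acly and Fasn) and Fasn alone among libraries with 0.1% to 1.3% muscle reads. Msmo1 fell by 47.7%, Cyp51 fell by 41.0%, Hmgcs1 fell by 39.4% and Fasn fell by 27.5%. Srebf1 was the only member that rose, and Srebf2 was not called. In all, 21 of 35 members fell (60.0%), against 18.6% of all genes tested, and 1 rose, against 16.6% (35.2% of all genes in either direction). The members' median log2 change was -0.26 and that of all genes 0.00.

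Fibroblast markers fell over the same interval for 10 of 10, from a summed 5260 to 12095 CPM at day 10 to 1798 to 3482 CPM at day 22. Muscle markers were called for 0 of 25, macrophage markers rose for 4 and fell for 3 of 14, mammary epithelial markers rose for 2 and fell for 6 of 11, proliferation genes rose for 3 of 10, and T cell markers were called for 0 of 5. These levels of the 2 days do not overlap, so the score splits the libraries by day as the labels do, and a change with time cannot be told apart from it. With the fibroblast score as a covariate, an alternative added after seeing the data, 13 members were called lower and 2 higher (Srebf1 and Npc1), Msmo1 at -0.98 (adjusted p = 1.5e-04) and Hmgcs1 at -0.64 (adjusted p = 0.0034). In libraries with 0.1% to 1.3% muscle reads, 4 at day 10 and 6 at day 22, 11 fell and Srebf1 rose. Over all 13650 genes 1672 fell and 1366 rose there, and 1070 fell and 1259 rose with the fibroblast score. Of the 22 calls, 12 held under all 18 alternatives tried and without each library in turn: Acat2, Hmgcs1, Mvd, Idi1, Fdps, Fdft1, Lss, Cyp51, Tm7sf2, Msmo1, Fasn and Srebf1. The digits term, among those alternatives, cannot move these changes, since all p95HER2 tumor numbers have 3 digits.

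In FL-HER2 tumors over the same interval 9 members fell and 0 rose. Those were Hmgcs1, Mvd, Fdps, Lss, Cyp51, Tm7sf2, Msmo1, Insig2 and Abca1. Their share of 25.7% was below that of all genes, of which 30.6% fell and 20.7% rose (51.4% in all), so the count by itself sets the members no further apart than other genes. None of the 6 fatty acid genes was called. All 11 members with an unadjusted p under 0.05 were lower at day 22, yet voom on the recovered reads, which scales to library totals, called 5 higher (Ebp, Srebf2, Scap, Stard4 and Npc1) and 5 lower, and quantile normalization 3 higher (Hsd17b7, Srebf1 and Npc1) and 7 lower. Scaling to library totals moved the median of all genes from -0.03 to 0.08.

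Fibroblast markers also fell for 10 of 10 in FL-HER2 tumors, muscle markers for 12 of 25, endothelial for 8 of 8, macrophage for 8 of 14 and mammary epithelial for 6 of 11, while proliferation genes rose for 8 of 10 and T cell markers for 5 of 5 (median log2 change 1.70). With the fibroblast score as a covariate 0 of the 9 calls held, with values from -0.63 (Msmo1, adjusted p = 0.21) to 0.17 (Abca1, adjusted p = 0.73), whose sign turned. That fit called 217 of all 13650 genes higher and 249 lower, against 2830 and 4181 in the main fit. As in p95HER2 tumors, fibroblast levels of the 2 days did not overlap, 9030 to 26956 against 1333 to 3849 summed CPM, so score and day cannot be told apart. With the digits term 4 were called (Cyp51, Tm7sf2, Msmo1 and Insig2), and over all genes 1038 were higher and 1915 lower.

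**Figure D2:**
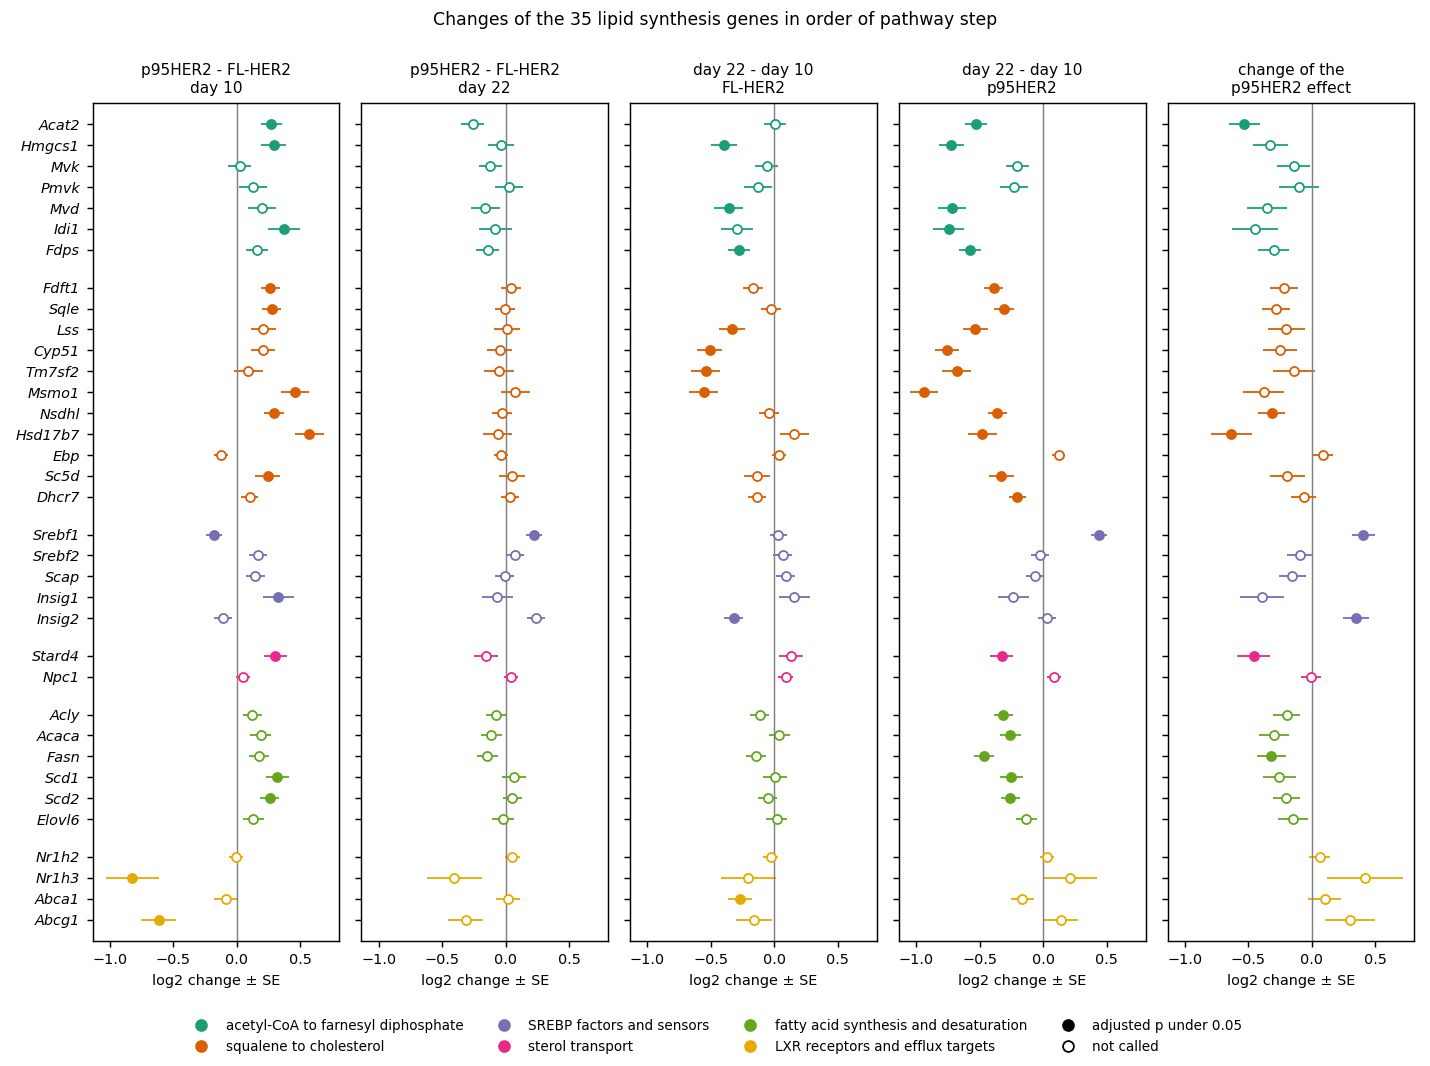
Change of each of the 35 members in pathway order, as log2 change ± SE on a linear axis, for the 4 comparisons and for the change of the p95HER2 effect between the days. Filled points passed an adjusted p of 0.05, open points did not. Sterol and fatty acid synthesis genes other than Ebp lie right of 0 at day 10 and left of 0 over time in p95HER2 tumors. There Srebf1 alone is filled on the right.

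The test of whether the p95HER2 effect differed between the days called 7 members. Acat2, Nsdhl, Hsd17b7, Stard4 and Fasn had a lower p95HER2 effect at day 22 than at day 10 (14.3% of members, against 6.20% of all genes), and Srebf1 and Insig2 a higher one (5.71%, against 13.5%), while 19.6% of all genes were called in either direction. Of the 18 sterol synthesis genes 17 had a negative value, with a median of -0.27, but only 3 passed. The change over time thus tested as more negative in p95HER2 than in FL-HER2 tumors for Acat2, Nsdhl, Hsd17b7, Stard4 and Fasn. None of these was called over time in FL-HER2 tumors. The test was not passed for Hmgcs1 (adjusted p = 0.094), Cyp51 (0.19) or Msmo1 (0.087). With library weights, however, 19 members were called, 16 of them lower, among them Hmgcs1, Cyp51 and Msmo1, and with the digits term Acat2 alone. This comparison shares its libraries with all the others. With the fibroblast or the macrophage score as a covariate the 3 calls were Acat2, Hsd17b7 and Srebf1, and 0 were called among libraries with 0.1% to 1.3% muscle reads. Calls over all 13650 genes moved as well, from 1836 higher and 846 lower in the main fit to 2885 and 1692 with library weights. They were 130 and 103 with the digits term, 378 and 255 with the fibroblast score, and 1121 and 648 with the macrophage score. Among the muscle-limited libraries they were 20 and 4. Endothelial markers moved for 8 of 8 in this comparison, all to a higher p95HER2 effect at day 22, as did fibroblast markers for 5 of 10, macrophage for 4 of 14 and adipocyte for 3 of 12.

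Among the 7 genes from acetyl-CoA to farnesyl diphosphate, Hmgcs1, which condenses acetoacetyl-CoA to HMG-CoA, held 104 to 164 CPM (median 126) in FL-HER2 and 124 to 210.3 CPM (median 169) in p95HER2 tumors at day 10. At day 22 the ranges were 82.9 to 139 CPM (median 107) and 81.4 to 159 CPM (median 103). At day 10, 6 p95HER2 libraries stood above all FL-HER2 libraries, and by day 22 the constructs overlapped over most of their range. Hmgcs1 was higher in p95HER2 tumors at day 10 (0.29 ± 0.10, adjusted p = 0.016), but among libraries with 0.1% to 1.3% muscle reads its sign turned (-0.09), and with the muscle score it stood at 0.14 (adjusted p = 0.38). Both constructs showed a fall with time, p95HER2 of -0.72 ± 0.10, adjusted p = 1.7e-07 and FL-HER2 of -0.40 ± 0.10, adjusted p = 0.0012.

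Fdps, which makes farnesyl diphosphate, ran over 119 to 154 CPM (median 134) in FL-HER2 and 129 to 180.3 CPM (median 157) in p95HER2 tumors at day 10. Its day 22 ranges were 84.8 to 157 CPM (median 124) and 92.4 to 147 CPM (median 109.7). In p95HER2 tumors 9 of 10 day 22 libraries lay below all day 10 libraries. The fall was -0.58 in p95HER2 (adjusted p = 8.1e-07) and -0.28 in FL-HER2 tumors (adjusted p = 0.0076), and the constructs did not differ past the threshold at either day, although at day 10 scaling to library totals called Fdps higher in p95HER2 tumors.

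Mvd, the mevalonate diphosphate decarboxylase, lay at 22.0 to 37.0 CPM (median 25.1) in FL-HER2 and 25.4 to 35.9 CPM (median 32.6) in p95HER2 tumors at day 10. At day 22 it lay at 15.6 to 31.3 CPM (median 23.4) and 15.8 to 30.8 CPM (median 18.9). All day 22 p95HER2 libraries were below the day 10 median, and the ranges overlapped through 1 library, replicate 3. Mvd fell in p95HER2 (-0.72 ± 0.11, adjusted p = 1.8e-06) and in FL-HER2 tumors (-0.36 ± 0.11, adjusted p = 0.0077). Of the other genes of this stretch, the isomerase gene Idi1 fell by 0.74 and the thiolase gene Acat2 by 0.53 in p95HER2 tumors. The kinase genes Mvk (-0.20 ± 0.09, adjusted p = 0.077) and Pmvk (-0.23 ± 0.11, adjusted p = 0.1) were not called there or in any other comparison, except over time in p95HER2 tumors with library weights.

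Between squalene and cholesterol, Msmo1 changed most. Its levels ran over 30.8 to 51.2 CPM (median 39.4) in FL-HER2 and 40.7 to 71.0 CPM (median 59.2) in p95HER2 tumors at day 10, and 8 p95HER2 libraries stood above all FL-HER2 libraries. At day 22 they ran over 19.3 to 38.3 CPM (median 31.9) and 25.1 to 48.3 CPM (median 31.8), and the constructs overlapped. Msmo1 was higher in p95HER2 tumors at day 10 (0.46 ± 0.11, adjusted p = 0.0012), and among libraries with 0.1% to 1.3% muscle reads the change was 0.06. It fell with time in p95HER2 (-0.94 ± 0.11, adjusted p = 1.2e-08) and in FL-HER2 tumors (-0.56 ± 0.11, adjusted p = 1.1e-04).

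Cyp51, the lanosterol 14-alpha-demethylase, held 249.9 to 385 CPM (median 302) in FL-HER2 and 271 to 437 CPM (median 386) in p95HER2 tumors at day 10. By day 22 these levels were 176 to 298 CPM (median 247) and 178 to 364 CPM (median 231). In p95HER2 tumors 9 of 10 day 22 libraries lay below all day 10 libraries, and replicate 3 was the exception. Cyp51 fell in p95HER2 (-0.76 ± 0.10, adjusted p = 3.2e-08) and in FL-HER2 tumors (-0.51 ± 0.10, adjusted p = 4.0e-05), while the constructs did not pass the test at day 10 (0.21 ± 0.10, adjusted p = 0.08) or at day 22.

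Tm7sf2, a sterol C14 reductase gene, was scarce, with 7.28 to 11.7 CPM (median 9.02) and 5.94 to 13.4 CPM (median 10.6) in FL-HER2 and p95HER2 tumors at day 10 and 4.91 to 8.62 CPM (median 6.83) and 4.49 to 8.70 CPM (median 6.68) at day 22. The groups of the 2 days overlapped under both constructs. It fell by 0.68 in p95HER2 (adjusted p = 8.1e-06) and by 0.54 in FL-HER2 tumors (adjusted p = 2.0e-04).

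Hsd17b7, unlike Msmo1, Cyp51 and Tm7sf2, was not called over time in FL-HER2 tumors. Fdft1, Sqle, Nsdhl and Sc5d of this stretch shared its calls at day 10 and over time. Hsd17b7 ran over 14.3 to 24.3 CPM (median 18.2) in FL-HER2 and 19.0 to 36.2 CPM (median 29.1) in p95HER2 tumors at day 10, where 8 p95HER2 libraries exceeded all FL-HER2 libraries. At day 22 it ran over 16.6 to 31.8 CPM (median 21.1) and 16.9 to 30.05 CPM (median 21.5). It was higher in p95HER2 tumors at day 10 (0.57 ± 0.11, adjusted p = 8.8e-05, or 0.37 with the muscle score, adjusted p = 0.022), fell over time there (-0.48 ± 0.11, adjusted p = 7.2e-04) and was not called over time in FL-HER2 tumors (0.16 ± 0.11, adjusted p = 0.26). The difference between those courses was called (-0.63 ± 0.16, adjusted p = 0.0049). Of the remaining genes of this stretch, Fdft1, Sqle, Lss, Nsdhl, Sc5d and Dhcr7 fell in p95HER2 tumors by between 0.20 (Dhcr7) and 0.53 (Lss), and Lss fell in FL-HER2 tumors as well. Ebp, the sterol delta8-delta7 isomerase, was not called there (0.12 ± 0.05, adjusted p = 0.064), but quantile and library-total scaling, library weights and the skin score called it higher.

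**Figure D3:**
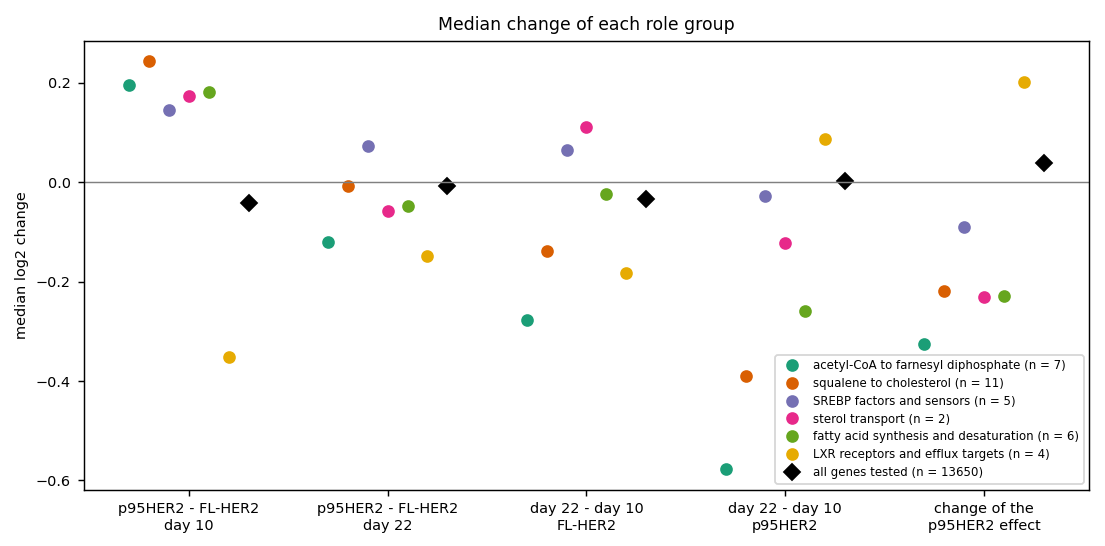
Median log2 change of each role group of members (circles) and of all 13650 genes tested (diamonds) in the 5 comparisons, on a linear axis. Over time in p95HER2 tumors the mevalonate stretch sits at -0.58, the squalene to cholesterol stretch at -0.39 and the fatty acid genes at -0.26, while all genes sit at 0.00.

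Neither SREBP gene was called lower where the synthesis genes fell. Srebf1 lay at 743 to 1152 CPM (median 938) in FL-HER2 and 738 to 959 CPM (median 847) in p95HER2 tumors at day 10, and at 851 to 1191 CPM (median 1031) and 1044 to 1388 CPM (median 1188) at day 22. Its libraries did not overlap between the days in p95HER2 tumors, with 10 of 10 day 22 libraries above all day 10 libraries. Each other member overlapped, and the share of all genes without overlap was not counted. In p95HER2 tumors Srebf1 rose over time (0.44 ± 0.06, adjusted p = 5.2e-07), while the synthesis genes fell. Between constructs it was lower in p95HER2 tumors at day 10 (-0.18 ± 0.06, adjusted p = 0.02) and higher at day 22 (0.23 ± 0.06, adjusted p = 0.035). The difference between these effects was called (0.41 ± 0.09, adjusted p = 0.0017). The day 10 call ended under each other scaling tried, median-of-ratios, quantile and library totals. The call for the difference ended under quantile normalization, with the digits term and among libraries with 0.1% to 1.3% muscle reads. The day 22 call ended when FL-HER2 day 22 replicate 1, 3, 7 or 8, or p95HER2 day 22 replicate 1, 4, 7, 9 or 10, was left out, with an adjusted p of up to 0.095. It also ended with no filter, under quantile and library-total scaling, in the fit of the compared groups alone, with the muscle or the macrophage score, and under the limits on muscle and skin markers. Over time in FL-HER2 tumors Srebf1 was not called (0.03 ± 0.06, adjusted p = 0.7).

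Srebf2, which encodes the main driver of cholesterol synthesis, lay at 223 to 347 CPM (median 271) in FL-HER2 and 262 to 362 CPM (median 317) in p95HER2 tumors at day 10. At day 22 it lay at 259 to 356 CPM (median 298) and 269 to 365 CPM (median 329). All 4 groups overlapped. As deposited it was called in none of the 5 comparisons, with 0.16 ± 0.07, adjusted p = 0.06 at day 10 and -0.03 ± 0.07, adjusted p = 0.81 over time in p95HER2 tumors. Under median-of-ratios, quantile and library-total scaling and with library weights it was called higher in p95HER2 tumors at day 10, and under scaling to library totals also higher over time in FL-HER2 tumors. The chaperone gene Scap was not called as deposited either, but it was called higher at day 10 in the same fits except the quantile one, and over time in FL-HER2 tumors under scaling to library totals.

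The INSIG genes differed from each other. Insig1, itself a target of SREBPs, ran over 58.3 to 148 CPM (median 82.9) in FL-HER2 and 86.8 to 136 CPM (median 116) in p95HER2 tumors at day 10, and over 69.5 to 150.2 CPM (median 104) and 83.4 to 117 CPM (median 103) at day 22. Its FL-HER2 libraries spread widely and overlapped the p95HER2 range at both days. Insig1 was higher in p95HER2 tumors at day 10 (0.33 ± 0.12, adjusted p = 0.027), a call that ended without FL-HER2 day 10 replicate 4, 6 or 9 or p95HER2 day 10 replicate 4 (adjusted p up to 0.066). With the muscle score its change was 0.15 (adjusted p = 0.46), and in the muscle-limited libraries its sign turned (-0.07). The change over time in p95HER2 tumors was not called (-0.24 ± 0.12, adjusted p = 0.13).

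Insig2 ran over 36.3 to 49.7 CPM (median 43.8) in FL-HER2 and 29.0 to 48.0 CPM (median 42.1) in p95HER2 tumors at day 10, and over 28.4 to 45.3 CPM (median 37.2) and 40.0 to 49.4 CPM (median 44.6) at day 22. At day 22 all 10 p95HER2 libraries stood above the FL-HER2 median. In FL-HER2 tumors it fell between the days (-0.32 ± 0.07, adjusted p = 3.5e-04), in p95HER2 tumors it was not called (0.03 ± 0.07, adjusted p = 0.79), a difference that was called (0.35 ± 0.10, adjusted p = 0.014). The construct difference at day 22 just missed the threshold (0.24 ± 0.07, adjusted p = 0.05), and it was called under median-of-ratios and quantile scaling, in the fit of the compared groups alone, and with library weights or the adipocyte or fibroblast score.

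For sterol transport, Stard4, a carrier that moves cholesterol between membranes, lay at 41.3 to 68.4 CPM (median 49.1) and 50.9 to 80.7 CPM (median 64.3) in FL-HER2 and p95HER2 tumors at day 10. At day 22 it lay at 44.4 to 76.5 CPM (median 62.0) and 42.0 to 68.0 CPM (median 55.9), so the order of the medians changed over. It was higher in p95HER2 tumors at day 10 (0.30 ± 0.09, adjusted p = 0.0079), fell there with time (-0.33 ± 0.09, adjusted p = 0.0046), and the p95HER2 effect differed between the days (-0.46 ± 0.13, adjusted p = 0.013). With the muscle score its day 10 change was 0.15 (adjusted p = 0.3). Npc1, which exports cholesterol from lysosomes, lay at 42.9 to 58.1 CPM (median 51.8) and 47.1 to 61.7 CPM (median 55.3) at day 10 and at 50.4 to 69.0 CPM (median 58.6) and 54.5 to 68.6 CPM (median 58.7) at day 22. Its groups overlapped throughout, and as deposited it was called in no comparison, while quantile and library-total scaling called it higher over time in FL-HER2 tumors.

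Over time in p95HER2 tumors the 6 fatty acid genes had a median log2 change of -0.26 and the 18 sterol synthesis genes one of -0.50. Fasn, the fatty acid synthase, ran over 252 to 389.9 CPM (median 309.9) in FL-HER2 and 269 to 504 CPM (median 359) in p95HER2 tumors at day 10, and over 246 to 337 CPM (median 307) and 253 to 371 CPM (median 268) at day 22. In p95HER2 tumors 8 of 10 day 22 libraries lay below all day 10 libraries. Fasn fell there (-0.46 ± 0.08, adjusted p = 9.9e-06) and was not called in FL-HER2 tumors (-0.15 ± 0.08, adjusted p = 0.13). The difference between these courses was called (-0.32 ± 0.11, adjusted p = 0.042), but it held in 16 of the 39 fits that left out a library. For Nsdhl, also called there (-0.32 ± 0.11, adjusted p = 0.036), it held in 28.

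Acly, which makes cytosolic acetyl-CoA from citrate, lay at 172 to 299 CPM (median 238) and 214 to 344 CPM (median 260.0) at day 10 and at 194 to 279 CPM (median 232) and 189 to 276 CPM (median 219) at day 22, for FL-HER2 and p95HER2 in turn. The groups overlapped. Acly fell over time in p95HER2 tumors (-0.32 ± 0.08, adjusted p = 9.6e-04), and its difference from the course in FL-HER2 tumors was not called (adjusted p = 0.19). Acaca, the acetyl-CoA carboxylase that makes malonyl-CoA, also fell in p95HER2 tumors (-0.26 ± 0.08, adjusted p = 0.012), and the elongase gene Elovl6 was not called in any comparison.

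Scd2 ran over 1535 to 2999 CPM (median 1933) in FL-HER2 and 2166 to 2875 CPM (median 2485) in p95HER2 tumors at day 10, and over 1882 to 2643 CPM (median 2082) and 1811 to 2394 CPM (median 2178) at day 22. At day 10 all 10 p95HER2 libraries stood above the FL-HER2 median, although FL-HER2 replicate 10 was highest of all. Scd2 was higher in p95HER2 tumors at day 10 (0.26 ± 0.07, adjusted p = 0.0053) and fell there with time (-0.26 ± 0.07, adjusted p = 0.0058). The day 10 change was 0.15 with the muscle score (adjusted p = 0.22), and in the muscle-limited libraries its sign turned, as did that of Scd1 (-0.03 and -0.02). Scd1 gave 0.32 at day 10 (adjusted p = 0.0055) and -0.25 over time in p95HER2 tumors (adjusted p = 0.032), and the latter call ended without p95HER2 day 10 replicate 2, 4 or 9 or day 22 replicate 6 or 8.

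Of the 4 LXR genes 2 were lower in p95HER2 tumors at day 10, where 26.1% of all genes were lower. Abcg1, which exports cholesterol to lipoproteins, ran over 17.8 to 32.7 CPM (median 19.5) in FL-HER2 and 11.4 to 20.6 CPM (median 13.2) in p95HER2 tumors at day 10, and 9 of 10 p95HER2 libraries lay below all FL-HER2 libraries. At day 22 it ran over 13.0 to 35.5 CPM (median 19.2) and 13.5 to 20.8 CPM (median 15.6), with overlap. It was lower in p95HER2 tumors at day 10 (-0.62 ± 0.14, adjusted p = 4.6e-04) and not called at day 22 (-0.32 ± 0.14, adjusted p = 0.22). With the macrophage score as a covariate the day 10 change was -0.44 (adjusted p = 0.14).

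Nr1h3, which encodes LXR-alpha, lay at 3.27 to 8.65 CPM (median 6.56) and 1.57 to 7.48 CPM (median 3.90) in FL-HER2 and p95HER2 tumors at day 10, and at 4.32 to 10.2 CPM (median 5.16) and 3.47 to 7.91 CPM (median 4.03) at day 22. The groups overlapped at both days. It was lower in p95HER2 tumors at day 10 (-0.82 ± 0.21, adjusted p = 0.0019). With the macrophage score as a covariate the sign turned (0.10, adjusted p = 0.81). Macrophage markers summed to 1206 to 1731 CPM in FL-HER2 and 727 to 1445 CPM in p95HER2 tumors at day 10. Nr1h2, which encodes LXR-beta, was not called in any comparison, and the efflux gene Abca1 was called over time in FL-HER2 tumors alone (-0.27 ± 0.09, adjusted p = 0.015).

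Further genes of the pathways were counted in lists. Of 12 other sterol synthesis and uptake genes, 7 were higher in p95HER2 tumors at day 10 and 0 lower (15.2% and 26.1% of all genes). At day 22, 0 were called (4.52% of all genes), and 6 had a lower p95HER2 effect at day 22 than at day 10 (6.20%). Over time 2 of the list rose and 4 fell in p95HER2 tumors (16.6% and 18.6% of all genes). In FL-HER2 tumors 4 rose and 2 fell (20.7% and 30.6%). The HDL receptor gene Scarb1 rose under both constructs (0.78 ± 0.09, adjusted p = 2.5e-09 in p95HER2, 0.74 ± 0.09, adjusted p = 1.2e-08 in FL-HER2), as did Fads2, a delta-6 desaturase that SREBPs also drive (0.29 and 0.70).

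Of 15 other fatty acid and glycerolipid genes tested, 1 was higher and 8 lower in p95HER2 tumors at day 10 (15.2% and 26.1% of all genes), where 2 of the 6 fatty acid members were higher and 0 lower, and where 25 of 25 muscle markers were lower. Acacb, the acetyl-CoA carboxylase of muscle and other oxidative tissues, had the smallest adjusted p (-1.98 ± 0.27, adjusted p = 4.5e-07), followed by the acyltransferase gene Gpam (-0.47 ± 0.07, adjusted p = 4.6e-07). The largest change was that of Mlxipl, which encodes the lipogenic factor ChREBP and is named here after its values were seen (-2.93 ± 0.49, adjusted p = 1.0e-05). Over time 3 of the list rose and 3 fell in p95HER2 tumors (16.6% and 18.6% of all genes), and 3 rose and 7 fell in FL-HER2 tumors (20.7% and 30.6%). Thrsp, which promotes lipogenesis and stands in the adipocyte list as well, rose under both constructs (by 1.46 in p95HER2 and 1.09 in FL-HER2), while Acss2, an acetyl-CoA synthetase, fell in p95HER2 tumors (-0.32 ± 0.09, adjusted p = 0.0035) and Lpin1, a phosphatidate phosphatase, in FL-HER2 tumors (-0.79 ± 0.12, adjusted p = 5.1e-07). In the change of the p95HER2 effect 6 were higher and 1 lower (13.5% and 6.20% of all genes). Me1, the malic enzyme, stood at 0.40 ± 0.09, adjusted p = 0.0016 and Gpam at 0.44 ± 0.09, adjusted p = 0.0011.

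Other LXR targets and partners were lower in p95HER2 tumors at day 10 for 4 of 8 and higher for 1, beside 26.1% and 15.2% of all genes. Smpdl3a changed by -1.22 ± 0.15, adjusted p = 4.9e-08, whereas Arl4c, named as an LXR target in human cells, was higher (0.55 ± 0.06, adjusted p = 8.2e-10). At day 22 Smpdl3a was the 1 gene called (-0.53 ± 0.15, adjusted p = 0.036). Over time 4 of 8 fell in FL-HER2 tumors (30.6% of all genes), among them the nuclear receptor partner Rxra (-0.48 ± 0.06, adjusted p = 3.2e-08) and Mylip (-0.39 ± 0.07, adjusted p = 1.4e-05), a ubiquitin ligase for lipoprotein receptors. In p95HER2 tumors 1 rose and 2 fell (Arl4c -0.38, Rxra -0.27), against 16.6% and 18.6% of all genes. The p95HER2 effect changed for Arl4c (-0.41) and the phospholipid transfer protein Pltp (0.96), among 4 higher and 1 lower calls (13.5% and 6.20% of all genes).

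Of 8 genes of sterol esters and oxysterols, 5 were lower in p95HER2 tumors at day 10 (26.1% of all genes), with the sterol 27-hydroxylase gene Cyp27a1 at -1.62 ± 0.26, adjusted p = 4.8e-06 and the lysosomal acid lipase gene Lipa at -0.33 ± 0.08, adjusted p = 7.3e-04. In FL-HER2 tumors 6 fell over time and 1 rose (30.6% and 20.7% of all genes), with the oxysterol hydroxylase gene Cyp7b1 at -1.998 ± 0.32, adjusted p = 2.4e-06 and Lipa at -0.38. In p95HER2 tumors 2 rose and 2 fell over time (16.6% and 18.6% of all genes). The cholesterol esterifying enzyme gene Soat1 was among the former (0.22 ± 0.08, adjusted p = 0.034). Npc2, the lysosomal partner of Npc1, was among the latter (-0.40 ± 0.11, adjusted p = 0.0033). The p95HER2 effect was higher at day 22 for Lipa (0.57 ± 0.11, adjusted p = 4.0e-04) and Hsd3b7 (0.53 ± 0.12, adjusted p = 0.0022), and 0 of the 8 were called at day 22 itself.

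Of 7 genes that process SREBPs or partner INSIGs, Mbtps2, the site-2 protease that releases SREBPs, was higher in p95HER2 tumors at day 10 (0.20 ± 0.07, adjusted p = 0.016) and the ubiquitin ligase gene Rnf139 lower (-0.20 ± 0.07, adjusted p = 0.024). Erlin2 was higher at day 22 (0.14 ± 0.04, adjusted p = 0.04). Over time 3 of the 7 fell in FL-HER2 tumors, Rnf139 among them (-0.21), and 1 in p95HER2 tumors, where 30.6% and 18.6% of all genes fell. None was called in the change of the p95HER2 effect, where 19.6% of all genes were.

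Within groups the sterol genes were high or low in the same libraries. In p95HER2 tumors at day 22, replicate 3 was highest for 15 of the 18 sterol synthesis genes and replicate 6 lowest for 11, and at day 10 replicate 6 was lowest for 12. In FL-HER2 tumors replicate 1 was highest for 11 at day 10 and replicate 2 for 11 at day 22, and at day 10 replicate 10, the library with the fewest muscle reads of its group, was highest for all 6 fatty acid genes. The mean log2 value of the 18 genes was 10.57 ± 0.14 (SD, n = 10) in FL-HER2 and 10.79 ± 0.19 (n = 10) in p95HER2 tumors at day 10, and 10.36 ± 0.22 (n = 9) and 10.32 ± 0.16 (n = 10) at day 22. In p95HER2 tumors it ran over 10.44 to 10.99 at day 10 and 10.09 to 10.71 at day 22, and the ranges overlapped through replicates 5 and 6 of day 10 and replicate 3 of day 22.

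**Figure D4:**
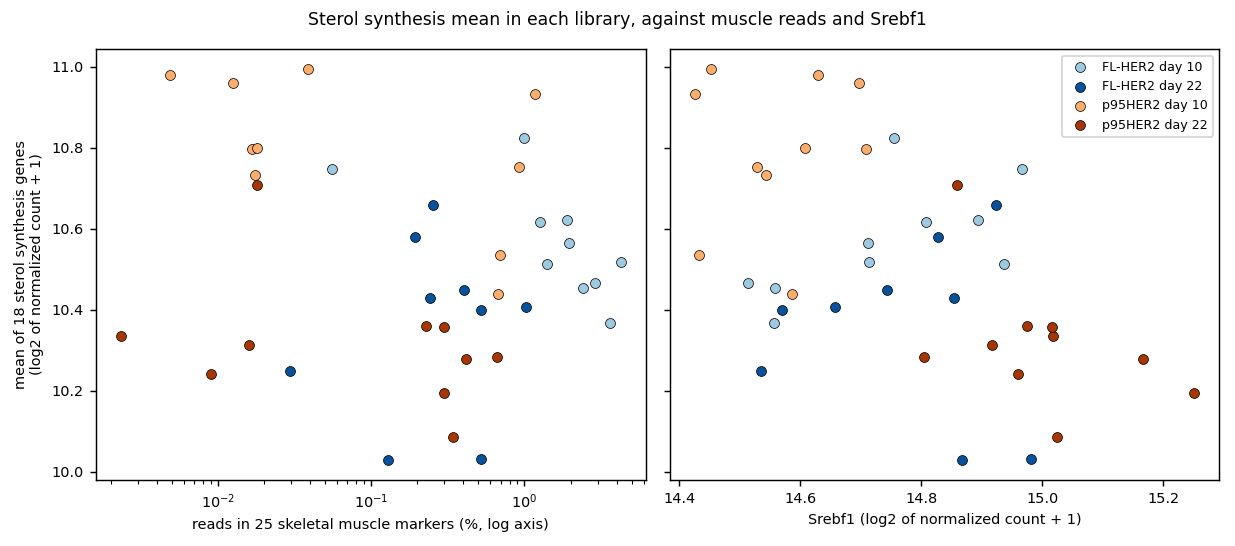
Mean log2(normalized count + 1) of the 18 sterol synthesis genes in each library, against the share of reads in 25 muscle markers (left, log axis) and against Srebf1 on the same log2 scale (right). Each point is a library, colored by group. The p95HER2 day 22 libraries lie at sterol means of 10.09 to 10.71 and at Srebf1 values of 14.80 to 15.25. FL-HER2 day 22 libraries have similar sterol means (10.03 to 10.66). For Srebf1, FL-HER2 libraries reach 14.98 and overlap the p95HER2 day 22 libraries.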

How the data were processed

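Per the labels' protocols, RNA was isolated on RNeasy Mini Plus columns and 39 directional poly(A) libraries were made. STAR 2.4.2a, the mm10 build and DESeq2 are named in the submitters' processing notes, while no source used here names the counting program, its annotation or whether it used the strand. The table as deposited is named CPM, but the authors' deposited values are log2(read count / size factor + 1): undoing the log gave whole multiples of 1 step in each library for 100.0% of values (tolerance 0.001 reads). Levels are the recovered reads per 1000000 of each library's total (21772259 to 44427621 reads, 34009091 ± 3708309, SD, n = 39), so 1 CPM is at least 21.8 reads.

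The log2 values as deposited were tested with limma 3.58.1 in R 4.3.3 (lmFit, contrasts.fit, eBayes with a trend), 1 coefficient per group over all 39 libraries, two-sided. Genes needed at least 1 CPM in at least 9 libraries, which left 13650, and p-values were adjusted over all of them by Benjamini-Hochberg, called under 0.05. The fits were also tested on simulated data with known changes. Groups come from the labels, and replicate numbers only follow record order. The title and the description of FL-HER2 day 10 replicate 8 give different tumor numbers, and its column was matched by the description. No pair of libraries was identical.

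The members and gene lists were chosen with earlier results of these data known. Srebf1, Srebf2 and, in each role group, up to 3 members with the smallest adjusted p in any comparison are given by the lowest, median and highest library, Hsd17b7 was added after its values were seen, and up to 2 called genes are named from each further list. Some genes this rule takes are not reported here. Alternatives were pseudocounts of 0.1 and 5, filters of 5 CPM or none, median-of-ratios, quantile and library-total scaling, voom on recovered reads, library weights, separate fits, muscle, skin and adipocyte scores, limits on muscle (0.1% to 1.3%) and skin (mean log2 below 6), the digits of the tumor number, and each library left out. Fibroblast and macrophage scores were added after seeing the data. Exon lengths and overlaps are from GENCODE release M21 and promoters from RefSeq (GRCm38.p6).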

Additional observations from a re-analysis of the deposited data

Results flagged for a closer look

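Among 140 sets of 1 member in 1 group, 13 had a library far from the rest, with a gap to its nearest neighbour, as a share of the group's range, past Dixon's 95% value, where chance gives about 1 in 20. In p95HER2 tumors at day 22, replicate 3 stood high for Acat2 (0.536), Idi1 (0.526), Cyp51 (0.535), Nsdhl (0.522) and Fasn (0.484). Its Cyp51 level was 364 CPM and the other 9 libraries lay at 178 to 246 CPM. Replicate 6 of that group stood low for Scd2 (0.482). In p95HER2 tumors at day 10, replicate 6 stood low for Sqle (0.582), and replicate 5 stood high for Scap (0.533) and low for Insig2 (0.516).

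In FL-HER2 tumors at day 10, replicate 1 stood high for Mvd (0.476), replicate 10 for Elovl6 (0.474) and replicate 3 for Abcg1 (0.583). Replicate 2 stood high for Scd2 at day 22 (0.549).

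The p95HER2 effect differed between the days for 7 members in limma. The log2 difference, day 22 minus day 10, was -0.53 for Acat2, -0.32 for Nsdhl, -0.63 for Hsd17b7, -0.46 for Stard4, -0.32 for Fasn, 0.41 for Srebf1 and 0.35 for Insig2.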

How the results depend on the processing

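No paired analysis was possible because replicate numbers follow record order and tie no libraries together across groups. Of the 22 calls over time in p95HER2 tumors, 12 held under all alternatives, against 0 of 16 for the constructs at day 10, 0 of 1 at day 22, 0 of 9 over time in FL-HER2 tumors and 0 of 7 for the change between days. These counts are not like for like. The digits term cannot move estimates over time in p95HER2 tumors or between constructs at day 22, where all numbers have 3 digits. In comparisons with FL-HER2 day 10, the digits term and the muscle limit each rest on 2 libraries of that group. Members called for the constructs at day 10 numbered 16 as reported, 4 with the muscle score, 0 among libraries with 0.1% to 1.3% muscle reads, 6 among those with a skin score below 6, and 2 each with the digits term, the fibroblast score and the macrophage score. Over all genes these fits also called fewer than the main fit, down to 144 higher and 139 lower with the muscle limit. In the muscle-limited libraries the day 10 sign turned for Hmgcs1 (-0.090), Idi1 (-0.062), Sc5d (-0.16), Insig1 (-0.068), Scd1 (-0.016) and Scd2 (-0.026), and with the macrophage score that of Nr1h3 turned (0.10).

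At day 22 the count was 1 as reported, 0 with no filter, log2(CPM + 1), voom, the muscle or skin limit or the macrophage score, 2 with median-of-ratios factors or the adipocyte or fibroblast score, and 3 with library weights. The count was also 1 with the muscle score (Acat2, lower) and with quantile normalization or separate fits (Insig2, higher), without Srebf1. Over time in FL-HER2 tumors it was 9 as reported, 4 with the muscle limit or the digits term and 0 with the fibroblast score, where the sign of Abca1 turned (0.17). Over time in p95HER2 tumors it was 22 as reported, 12 with the muscle limit, and voom gave 3 higher and 17 lower. For the change between days it was 7 as reported, 19 with library weights, 0 with the muscle limit, 1 with the digits term, 3 with the fibroblast or macrophage score, and 1 higher and 7 lower with quantile normalization.

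Leaving out each library gave 14 to 20 calls for the constructs at day 10, 0 to 3 at day 22, 9 to 12 over time in FL-HER2, 21 to 24 in p95HER2 tumors and 5 to 13 for the change between days. The last count was 12 without FL-HER2 day 10 replicate 10, 13 without FL-HER2 day 22 replicate 5 or p95HER2 day 22 replicate 3, and 11 without FL-HER2 day 22 replicate 6. The day 10 call of Sc5d ended without any of 15 libraries, all of day 10 (adjusted p up to 0.11). The cause of these shifts was not tested, but the limits on muscle and skin also leave fewer libraries.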
